A study of Mus musculus with 7 samples.

Results

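The genes described here handle zinc in the mouse oocyte. They are 10 of the 37620 genes of the deposited table, chosen by name: the metallothioneins Mt1 and Mt2, the metal-response transcription factor gene Mtf1, the zinc importers Slc39a1, Slc39a6, Slc39a7 and Slc39a10, and the zinc exporters or vesicle loaders Slc30a1, Slc30a5 and Slc30a9. The choice was made with values of these oocytes in view, so what follows is a description and no test is given. RNA was measured in 7 single mature oocytes at the MII stage, the arrest in metaphase of meiosis II. The study compares oocytes with and without a deletion of Hira, the gene of a histone chaperone that deposits the variant H3.3, made while the oocyte grows. There were 3 control oocytes of genotype Hiraf/f (WT1, WT2 and WT4) and 4 oocytes of genotype Hiraf/f, Zp3-Cre (KO1 to KO4). The genotype label of the controls names no Cre, while the sample titles of both groups carry the tag Zp3-Cre. In the KO oocytes Cre is driven by the oocyte-specific Zp3 promoter, and both genotypes carry floxed Hira alleles. The design text counts 4 control oocytes, of which 1 is not analysed here. The labels name no animal, strain or age, so each genotype counts as 1 sample, and every SD below is the spread between single oocytes.

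Zinc is a regulated signal in mammalian oocytes: it accumulates during meiotic maturation, holds the MII arrest together with the inhibitor of the anaphase-promoting complex encoded by Fbxo43, and is released in part at fertilization. Slc39a proteins (ZIP) carry zinc into the cytoplasm, and Slc30a proteins (ZnT) carry it out of the cell or into vesicles. Metallothioneins are small cysteine-rich proteins that bind surplus zinc and copper, and Mtf1 senses zinc and activates metallothionein genes and Slc30a1 through metal response elements in their promoters.

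Each oocyte had between 15340782 and 25940519 reads in genes. Hira itself had 35 to 55 reads per WT oocyte and 5 to 17 per KO oocyte, in the direction of the labels. Genes at 1 FPKM (fragments per kilobase of gene, scaled to the reads of the library) or more numbered 6959 to 7286 per WT oocyte and 7664 to 8222 per KO oocyte. This breadth moves with genotype, and its part in the results below was not tested. All 14 oocyte markers examined were above the filter in use, FPKM of at least 1 in at least 3 oocytes. Their summed level moved with genotype, at 24042 to 24949 FPKM in WT and 15249 to 18062 in KO oocytes. Of the 14, 6 were lower in all KO oocytes than in all controls, where 8.94% of all genes above the filter were. The median difference of the 14 was -0.32. The part of these marker levels in the results below was not tested. Differences are KO minus WT in the mean of log2(FPKM + 1), a scale that understates differences of low genes. Across the 8033 genes above the filter the median difference was 0.18, and -0.01 with median-ratio scaling. Levels are relative to the other RNA of the same oocyte.

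Of the 10 genes, 6 passed the filter: Mt1, Mtf1, Slc39a6, Slc39a10, Slc30a1 and Slc30a5. Mt1 passed it through the KO oocytes alone. Over 2-fold higher in KO was 1 of the 6, Mt1, and none was over 2-fold lower. Among all filtered genes the shares were 7.95% higher and 2.34% lower. Without KO3 a second gene, Slc30a1, was over 2-fold higher too, where 8.58% of all genes were. The lowest KO oocyte exceeded the highest WT oocyte for Mt1 and Mtf1, so for 2 of 6, where 18.9% of all genes did the same. The reverse, with all KO oocytes below, held for 0 of the 6 and for 8.94% of all genes. These shares of all genes turned round with other scalings, to 12.3% above and 15.1% below with median-ratio scaling and 12.1% and 13.95% with quantile normalization. The median difference of the 6 genes was 0.72. The other 4 genes, Mt2, Slc39a1, Slc39a7 and Slc30a9, had mean levels under 1 FPKM in both genotypes.

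**Figure D1:**
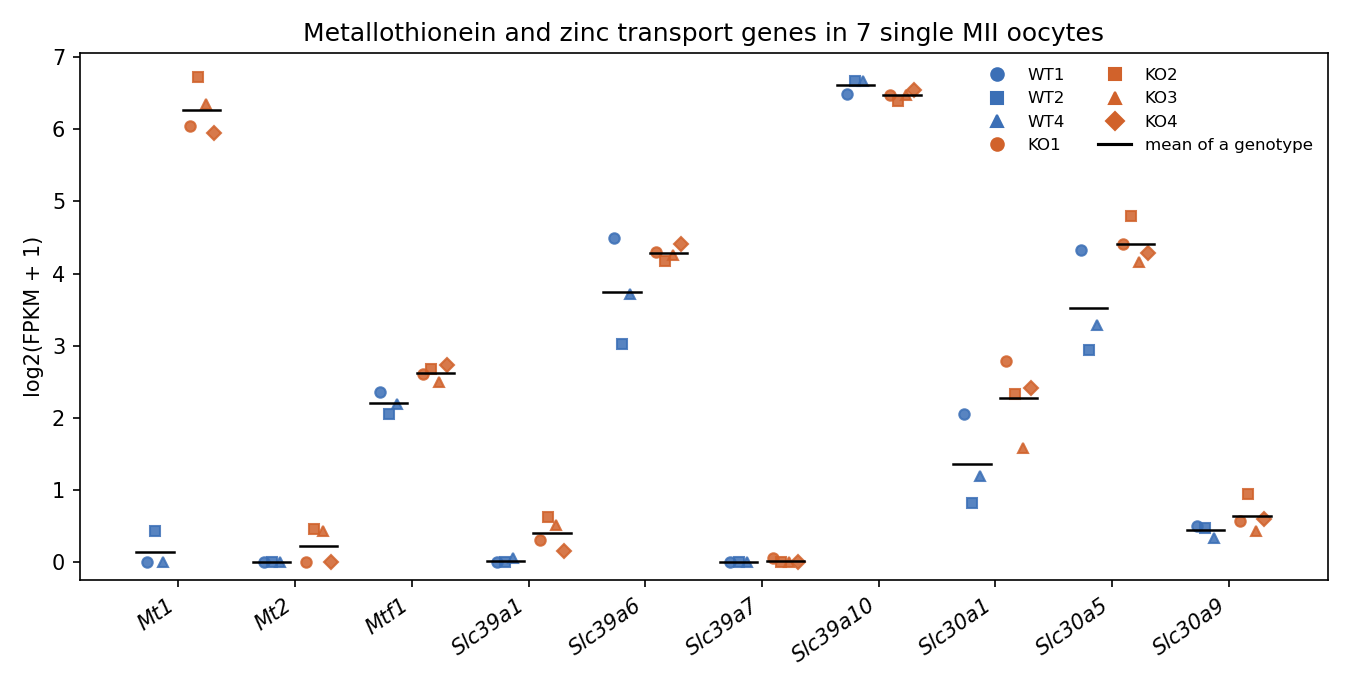
Level of each of the 10 genes as log2(FPKM + 1) in 3 WT (blue) and 4 KO (orange) oocytes, with 1 symbol per oocyte and a black line at the mean of each genotype. Mt1 is near 0 in WT and between 60.6 and 104 FPKM in KO oocytes, while Mt2 and Slc39a7 stay near 0 throughout and Slc39a10 is the most abundant zinc transporter in each oocyte.

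Mt1 was present at high level in each KO oocyte and nearly absent from the controls. It stood at 0 FPKM in WT1, 0.356 in WT2 and 0 in WT4. In the KO oocytes 1 to 4 it stood at 65.2, 104, 80.3 and 60.6 FPKM. The groups were far apart, and the difference of 6.12 was the highest of the 8033 genes above the filter. In reads, WT2 held 10 and the other WT oocytes none, against 1474, 2911, 2939 and 1832 in KO1 to KO4. The rate was 572 times as high in KO (95% interval 311 to 1193, counting error only). By mean level in KO, Mt1 ranked 502 among the genes of the table, close to Slc39a10 at rank 439.

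Mt2, which encodes the sister metallothionein and is the next protein-coding gene beside Mt1, was not detected at a comparable level. It stood at 0 FPKM in all 3 WT oocytes, at 0 in KO1 and KO4, at 0.378 in KO2 and at 0.345 in KO3. These values rest on 5 and 6 reads, and 0 reads in WT allow up to 3. The 2 KO oocytes with Mt2 reads were those with the highest Mt1. In them Mt1 was 276 and 233 times as high as Mt2 per length, so Mt2 made up 0.36% and 0.43% of the FPKM of the pair. Of the stretches of 50 bases in Mt2 transcripts, 45.8% are shared with the gene Gm45774, with both orientations compared. Gm45774 is not among the genes of the deposited table. The labels do not state a stranded library, so reads of these overlapping genes cannot be told apart.

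The sequence before the RefSeq start site is shown for Mt1, Mt2 and Mt4, because these 3 genes of the cluster differed in level. Mtf1 acts on metallothionein genes through elements in their promoters, and the printed stretch need not hold all of these. The sequences are the 250 bases before the RefSeq start on GRCm38.p6, all on the plus strand, from chr8:94178839-94179088 for Mt1, chr8:94172368-94172617 for Mt2 and chr8:94136954-94137203 for Mt4. The deposited values were made on another build, mm9. Capitals mark the core letters of the metal response element, TGCACNC or TGCGCNC, on either strand.
Mt1: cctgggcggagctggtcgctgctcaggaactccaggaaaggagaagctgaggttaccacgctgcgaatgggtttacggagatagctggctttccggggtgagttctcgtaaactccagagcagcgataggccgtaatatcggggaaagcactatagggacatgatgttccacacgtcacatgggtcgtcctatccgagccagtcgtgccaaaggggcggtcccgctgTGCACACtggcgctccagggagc
Mt2: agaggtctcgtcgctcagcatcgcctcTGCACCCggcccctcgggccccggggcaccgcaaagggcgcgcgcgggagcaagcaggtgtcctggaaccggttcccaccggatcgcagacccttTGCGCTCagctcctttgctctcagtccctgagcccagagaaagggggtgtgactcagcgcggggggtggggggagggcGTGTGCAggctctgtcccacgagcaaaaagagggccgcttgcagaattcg
Mt4: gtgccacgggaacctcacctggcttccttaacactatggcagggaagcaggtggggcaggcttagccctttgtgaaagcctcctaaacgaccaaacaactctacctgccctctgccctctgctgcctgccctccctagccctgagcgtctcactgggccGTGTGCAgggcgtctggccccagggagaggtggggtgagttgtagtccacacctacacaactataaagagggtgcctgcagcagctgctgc

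The core letters occurred 1 time in this stretch of Mt1, 3 times in that of Mt2 and 1 time in that of Mt4. Of 32851 RefSeq promoters, 21.4% held at least 1 such match in the same 250 bases and 1.26% held at least 3. Over the whole window of 300 bases, which adds the 50 bases after the RefSeq start, Mt1 held 3 matches and Mt2 held 4. At least 3 were held by 1.97% of promoters. The start sites are not settled, since GENCODE also lists Mt1 transcripts that begin 122 and 152 bases downstream of the RefSeq start and Mt2 transcripts that begin 46 and 242 bases downstream. The bases directly before the downstream Mt1 starts lie beyond the printed stretch and beyond the 300-base window, so matches there were not counted. The counts therefore hold for the RefSeq windows only and do not rank Mt1 against Mt2. Their relation to the levels of Mt1 and Mt2 was not tested. A match is not a measured binding site. Promoter windows were found for 9 of the 10 genes, and that of Slc39a6 was not. In the same 250 bases the core occurred 1 time each in Slc30a1 and Slc30a5, and it was not found in Mtf1, Slc39a1, Slc39a7, Slc39a10 or Slc30a9. Beyond the 10 genes, it was not found there in Mt3 or in Hamp, described below, and no window was found for Gclc.

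The other metallothionein genes of the cluster had patterns of their own. Mt4, a metallothionein best known from squamous epithelium, stood at 19.96 FPKM in WT1, 25.02 in WT2 and 17.7 in WT4. In KO1 it was at 17.9 FPKM, and in KO2 to KO4 at 84.0, 48.1 and 65.3. KO1 thus lay within the WT range while the other 3 KO oocytes lay above it, and the mean was 20.9 ± 3.75 in WT and 53.8 ± 28.1 in KO (SD). The difference of 1.14 was 0.90 with median-ratio scaling, 0.86 without KO2, 0.98 without KO4 and 1.59 without KO1. The ratio of Mt1 to Mt4 in FPKM was 3.65 in KO1 and 0.93 to 1.67 in the other KO oocytes, so Mt1 was high also in the oocyte in which Mt4 was not. Mt3, the brain metallothionein, was above 0 in KO3 only, at 0.119 FPKM. Nup93, a nuclear pore gene and the next protein-coding gene on the far side of Mt1, stood at 54.6 ± 7.73 FPKM in WT and 41.3 ± 4.45 in KO oocytes, a difference of -0.39. The summed level of Mt1 to Mt4 was 17.7 to 25.4 FPKM in WT, where nearly all of it was Mt4, and 83.0 to 189 in KO oocytes.

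**Figure D2:**
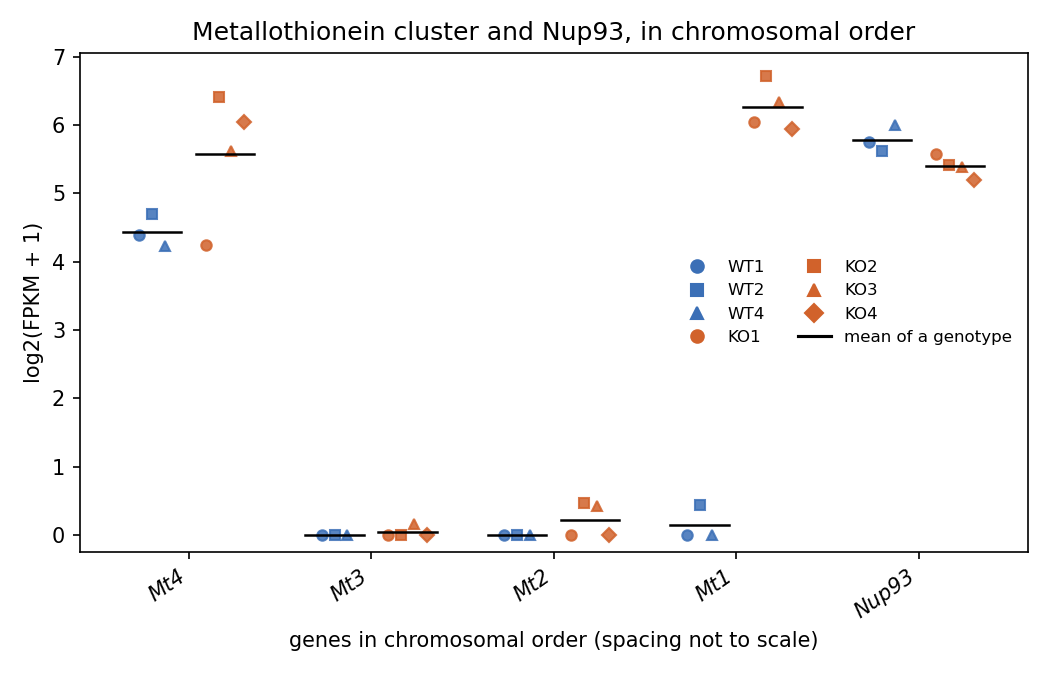
Levels as log2(FPKM + 1) of the metallothionein genes Mt4, Mt3, Mt2 and Mt1 and of the neighbouring Nup93, ordered as on the chromosome with spacing not to scale, in 3 WT (blue) and 4 KO (orange) oocytes with the mean of each genotype as a black line. Mt1 is high in all 4 KO oocytes, Mt2 and Mt3 are near 0 in both genotypes, and KO1 lies with the WT oocytes for Mt4.

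Markers of the surrounding follicle cells were mostly at or near 0 in the same libraries. Of 25 cumulus and granulosa cell markers, 12 were at 0 in all 7 oocytes, among them Amh, Foxl2, Lhcgr and Gja1, and 2 passed the filter. Their summed level was 3.63 to 4.58 FPKM in WT and 7.18 to 10.03 in KO oocytes. The excess lay in Fshr, at 0 in all WT oocytes and KO1 and at 2.99 to 4.51 FPKM in KO2 to KO4, and in Kitl, a growth factor gene, at 2.90 to 3.22 in WT and 3.53 to 6.22 in KO. Without these genes the sum was 0.409 to 1.38 FPKM in WT and 0.620 to 1.31 in KO oocytes. Of 7 blood cell markers, 5 were at 0 in all oocytes. In KO1, with Mt1 at 65.2 FPKM, Fshr was at 0 but Kitl was the highest of all oocytes (6.22), and the sum without Fshr was also highest there (7.18, against 3.63 to 4.58 in WT). The part of these markers in the Mt1 difference was not tested.

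Mtf1, the sensor that switches on metallothionein genes, was modestly higher in KO oocytes. It stood at 4.11 FPKM in WT1, 3.17 in WT2 and 3.56 in WT4, and at 5.10, 5.37, 4.66 and 5.62 in KO1 to KO4. The groups did not overlap, with 966 to 2173 reads per oocyte. The difference of 0.43 was 0.23 with median-ratio scaling and 0.18 with quantile normalization, where the median of all genes was 0.18 as deposited, -0.01 and 0.00. Of its 50-base stretches 7.55% are shared with the gene 1110065P20Rik.

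Slc39a10, a zinc importer of the cell surface, was the most abundant zinc transporter in each of the 7 oocytes and varied little. It stood at 88.9 FPKM in WT1, 101 in WT2 and 100 in WT4, and at 87.6, 82.9, 87.6 and 92.4 in KO1 to KO4. KO4 lay above WT1, so the groups overlapped, and the difference was -0.14 as deposited and -0.38 with median-ratio scaling. It supplied 72.7% to 86.7% of the summed FPKM of the 14 Slc39a genes. That sum was 121 ± 5.77 in WT and 117 ± 2.76 in KO oocytes, and its ranges overlapped.

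Slc39a6, an importer that pairs with Slc39a10 at the cell surface, came next among the importers. It stood at 21.6 FPKM in WT1, 7.13 in WT2 and 12.1 in WT4, and at 18.7, 17.1, 18.2 and 20.2 in KO1 to KO4. WT1 was the highest of all 7, so the groups overlapped, and the 4 KO oocytes were close to each other (18.5 ± 1.27) while the WT oocytes were spread (13.6 ± 7.36). The difference was 0.54, and 0.92 without WT1 and 0.18 without WT2.

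The remaining importers among the 10 genes had low values. Slc39a1, a surface importer, stood at 0 FPKM in WT1 and WT2 and at 0.046 in WT4, and at 0.241, 0.551, 0.433 and 0.115 in KO1 to KO4. The KO oocytes were all above the WT oocytes, with 11, 31, 32 and 7 reads against 2 in WT4, a rate 25.3 times as high (6.78 to 212, counting error only). Among the 10267 genes under the filter with a value in at least 1 oocyte, 6.48% showed this order and 1.78% the reverse. Of the 50-base stretches of Slc39a1, 21.8% are shared with a pseudogene, Slc39a1-ps. Slc39a7, which releases zinc from the endoplasmic reticulum, was above 0 only in KO1, at 0.040 FPKM. Of its stretches 74.5% are shared with Gm20427, so its reads cannot be assigned with certainty.

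Slc30a5, which loads zinc into vesicles of the secretory pathway, was the most abundant of the 3 exporter genes. It stood at 19.0 FPKM in WT1, 6.66 in WT2 and 8.76 in WT4, and at 20.2, 26.9, 16.9 and 18.6 in KO1 to KO4. WT1 lay among the KO oocytes and the other WT oocytes lay below all of them. The mean was 11.5 ± 6.62 in WT and 20.7 ± 4.40 in KO, a difference of 0.90 that was 1.30 without WT1 and 0.61 without WT2.

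Slc30a1, the exporter of the plasma membrane and a known Mtf1 target, was lower in level and had a like order. It stood at 3.14 FPKM in WT1, 0.766 in WT2 and 1.29 in WT4, and at 5.92, 4.05, 1.99 and 4.33 in KO1 to KO4. WT1 exceeded KO3, so the groups overlapped. The difference was 0.93, and 1.27 without WT1 and 0.66 without WT2. WT oocytes held 109 to 379 reads and KO oocytes 369 to 677. Slc30a9, whose protein is found at mitochondria, stood at 0.265 to 0.422 FPKM in WT and 0.353 to 0.928 in KO oocytes, which overlapped.

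In 5 of the 6 genes above the filter, all but Mt1, WT1 was the control nearest to the KO mean. Over all genes above the filter this was so for 44.2%, against 26.8% for WT2 and 29.0% for WT4. For Slc39a6, Slc30a1, Slc30a5 and Mtf1 the WT oocytes had the same order, with WT1 highest and WT2 lowest. Set against WT1 alone, the KO mean differed by 0.09 for Slc30a5, 0.23 for Slc30a1, 0.27 for Mtf1 and -0.21 for Slc39a6. Set against WT2 alone, the differences were 1.48, 1.46, 0.57 and 1.26. Without WT1, 3 of the 6 genes (Mt1, Slc30a1 and Slc30a5) were over 2-fold higher, where 11.3% of all genes were. In 5 of 6 every KO oocyte was then above both controls, where 33% of all genes were, and for Slc39a10 every KO oocyte was below, where 13% of all genes were. For Mt1, by contrast, WT1 was at 0, and the difference lay between 5.97 and 6.26 whichever oocyte was left out.

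**Figure D3:**
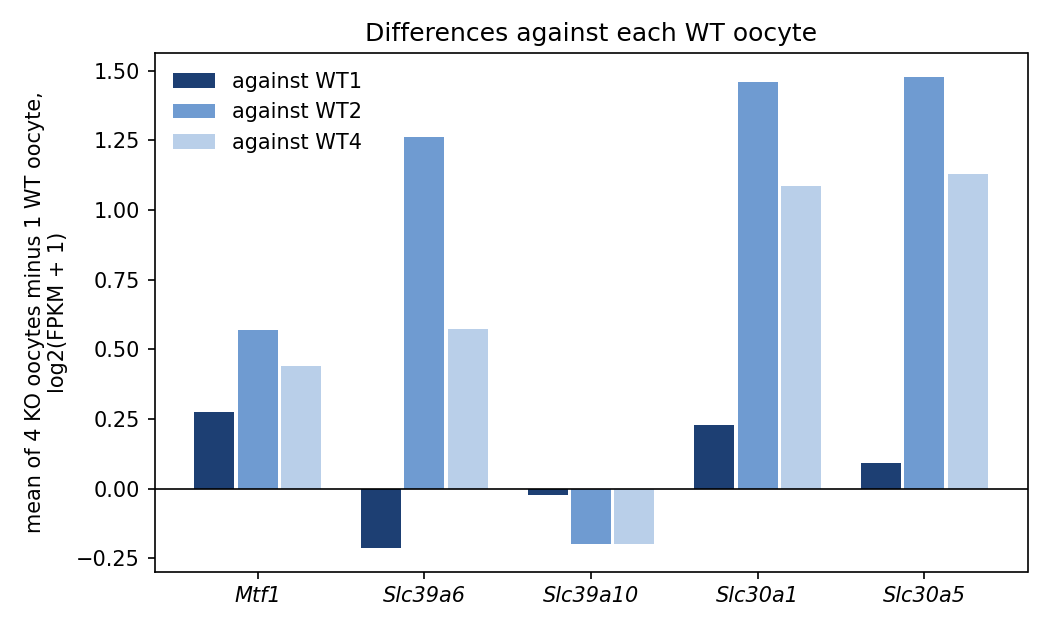
Mean log2(FPKM + 1) of the 4 KO oocytes minus that of 1 WT oocyte, for the genes above the filter other than Mt1, with bars for WT1 (dark), WT2 (middle) and WT4 (light) from a baseline of 0. Slc30a1 and Slc30a5 differ by 0.23 and 0.09 against WT1 but by over 1 against WT2 and WT4.

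By level in the WT oocytes, the order per length was Slc39a10 (96.6 FPKM), Slc39a6 (13.6), Slc30a5 (11.5), Mtf1 (3.61), Slc30a1 (1.73), Slc30a9 (0.360), Mt1 (0.119) and Slc39a1 (0.015), with Mt2 and Slc39a7 at 0. Slc39a10 stood clear of the rest. The ranges of Slc39a6 and Slc30a5 overlapped, as did those of Slc30a9 and Mt1 and those of Mt1 and Slc39a1. In KO oocytes Mt1 moved up beside Slc39a10, at 77.6 ± 19.8 against 87.6 ± 3.86 FPKM with overlapping ranges, and Slc30a5 (20.7) stood above Slc39a6 (18.5), again with overlap.

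The wider families were taken whole: 4 metallothionein genes, Mtf1, 14 Slc39a and 10 Slc30a genes. Of the 19 genes beyond the 10 above, 4 (Slc39a2, Slc39a14, Slc30a8 and Slc30a10) were at 0 in all oocytes, 9 were under the filter and 6 passed it. Of these 6, Mt4 was the 1 over 2-fold higher in KO, and 0 were lower by that much, beside 7.95% and 2.34% of all filtered genes. Their median difference was 0.12 as deposited, -0.10 with median-ratio scaling and -0.07 with quantile normalization, so its sign depends on the scaling. Slc39a9, a zinc transporter of the Golgi, was at 2.47 ± 0.710 FPKM in WT and 3.68 ± 0.279 in KO oocytes without overlap (as 18.9% of filtered genes), a difference of 0.45 (0.19 with quantile normalization). Slc39a8 (7.32 ± 3.14 against 6.41 ± 2.66) imports zinc and manganese, and its groups overlapped. Slc30a3, the vesicle loader of synapses, was at 12.6 ± 5.01 and 11.2 ± 2.80, and Slc30a4 at 7.89 ± 2.28 and 10.7 ± 4.15, both with overlap. Slc30a6, the partner of Slc30a5 in the secretory pathway, was at 1.06 to 1.19 FPKM in WT but at 0.024, 0.650, 0.855 and 1.27 in KO1 to KO4. KO4 was the highest of all 7, so the groups overlapped, and the difference of -0.37 was -0.14 without KO1. The summed FPKM of the Slc30a genes was 27.5 to 42.8 in WT and 37.7 to 62.4 in KO oocytes, with overlap. Under the filter, Slc39a11 (0 to 0.105 FPKM in WT and 0.259 to 0.553 in KO) and Slc30a7 (0 to 0.044 and 0.056 to 0.304) had all KO oocytes above all controls, as did 6.48% of genes under the filter.

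Among other genes reported as Mtf1 targets, 4 of 7 passed the filter. In KO, 2 of them were over 2-fold higher and without overlap, and none was lower by that much (over all filtered genes 7.95% were over 2-fold higher, 2.34% lower and 18.9% higher without overlap). Hamp, the iron hormone hepcidin, stood at 5.13 FPKM in WT1, 5.95 in WT2 and 2.24 in WT4, and at 15.98, 45.4, 34.5 and 18.4 in KO1 to KO4. All KO oocytes were above all WT oocytes, and the difference was 2.39. Of its 50-base stretches 16.6% are shared with Hamp2. Gclc, the catalytic subunit of the first enzyme of glutathione synthesis, stood at 0.531, 0.973 and 1.36 FPKM in WT and 8.06, 4.29, 5.82 and 2.79 in KO1 to KO4, again without overlap, with a difference of 1.62 that was 0.76 with a pseudocount of 5. The list was not uniform: Txn1 had a difference of -0.27, below the 25th percentile of all genes (-0.17), Selenow had 0.24, near their median, and Ndrg1 and Pgf were at 0 in all oocytes.

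Genes of other metal and stress lists were mostly within 2-fold, and each count of them is to be read beside the 7.95% higher and 2.34% lower of all filtered genes. Of 12 copper genes 8 passed the filter and none was over 2-fold apart. Their median was 0.11 as deposited, -0.04 with median-ratio scaling and -0.13 with quantile normalization. Of 14 iron genes 7 passed, and 1 was over 2-fold higher: Ftl1, the ferritin light chain, at 11.6 ± 6.03 FPKM in WT and 34.9 ± 10.7 in KO oocytes without overlap. Of its stretches 58.4% are shared with 17 other genes, mostly copies, so its reads are uncertain. Ftl1, taken here from the iron list, and Gclc are also known NRF2 targets. Nfe2l2, which encodes NRF2, was lower in KO, at 7.79 ± 1.92 in WT and 3.06 ± 1.05 in KO without overlap (-1.13). Of 10 NRF2 genes 6 passed, with Gclc over 2-fold higher, Nfe2l2 over 2-fold lower and 4 within 2-fold. These 4 were Txnrd1 (0.55), Gclm (0.49), Nqo1 (0.17) and Slc7a11 (-0.20). A part of NRF2 in these levels was not tested. The Nfe2l2 difference was within 2-fold without KO1 (-0.96), without WT2 (-0.998) and with a pseudocount of 5 (-0.66). Metallothioneins also respond to glucocorticoids. Of 8 genes of that response 2 passed, Fkbp5 at a difference of 0.08 and Dusp1, a phosphatase induced by many stimuli, at 6.34 ± 4.97 and 23.8 ± 5.51 FPKM without overlap (1.96). None of the 5 genes above the filter in the list of zinc-dependent MII arrest was over 2-fold apart. Fbxo43, the zinc-binding inhibitor that holds the arrest, stood at 28.8 to 45.3 FPKM in WT and 28.5 to 38.9 in KO oocytes.

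**Figure D4:**
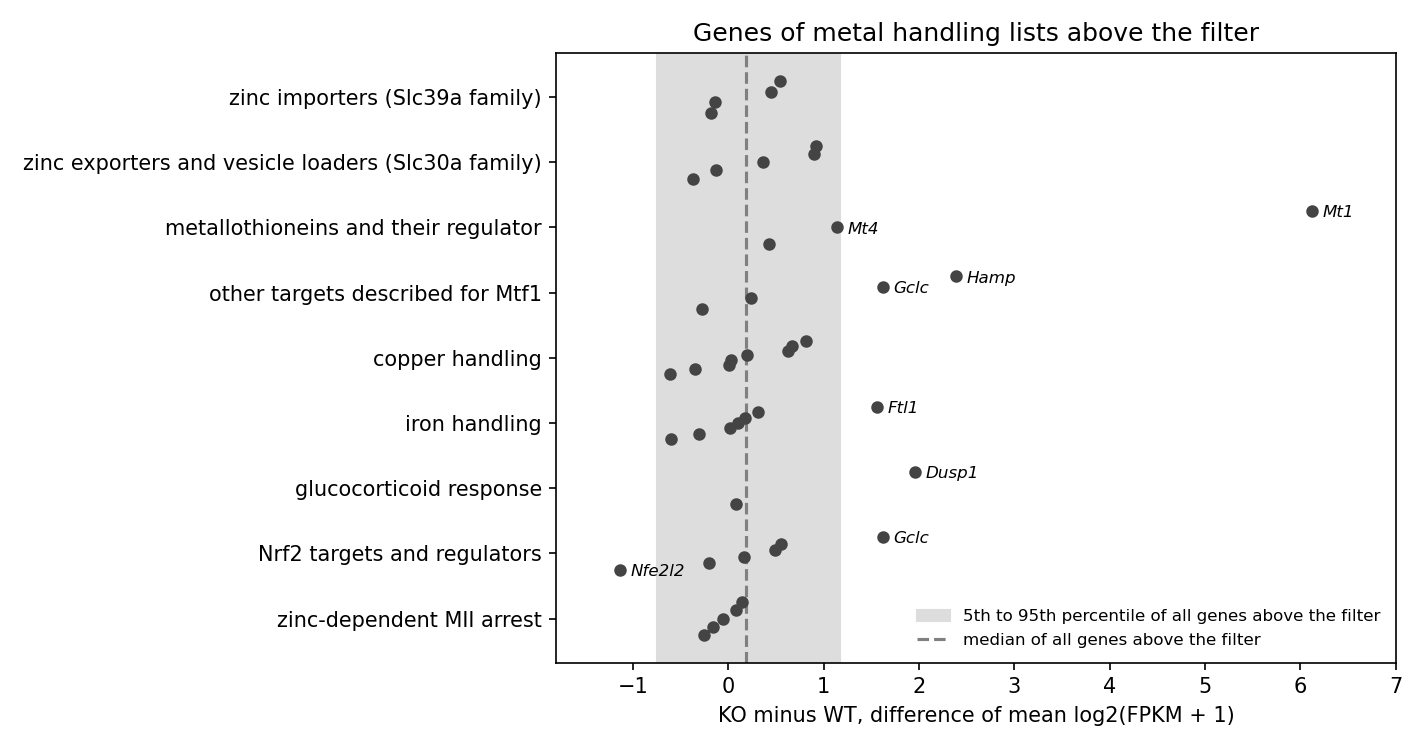
KO minus WT difference of mean log2(FPKM + 1) for the genes above the filter in each list, with 1 point per gene and names for those over 2-fold apart. The gray band spans the 5th to 95th percentile of all 8033 genes above the filter (-0.74 to 1.18) and the dashed line is their median of 0.18. Mt1 at 6.12 lies far outside the band, and Hamp, Dusp1, Gclc and Ftl1 lie to its right while Nfe2l2 lies to its left.

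The genes whose profile over the 7 oocytes was nearest that of Mt1 were sought among those above the filter, by the root-mean-square distance of log2(FPKM + 1) after subtracting each gene's WT mean. They were Efna1 (distance 1.56), Cox4i2 (1.57), Mpv17l (1.94), Gm12195 (2.11) and ENSMUSG00000092003 (2.18), and their KO minus WT differences were 3.39 to 4.18, all under that of Mt1. With the WT mean subtracted, this distance largely follows the size of the KO minus WT difference. The list thus holds genes with large differences and does not show a pattern shared with Mt1 from oocyte to oocyte. For Mt2 the nearest were Txn2 (0.073), Anks4b (0.085), Myl4 (0.093), Tph2 (0.097) and Pcnp (0.10), whose differences were 0.19 to 0.32. Mt2 itself is under the filter, with 5 reads in KO2 and 6 in KO3. Its profile is thus nearly flat, and this second list says little about genes that behave like Mt2.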

How the data were processed

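The authors deposited 1 table of FPKM values, not logged, per Ensembl gene and oocyte. The submitters' processing notes list Bowtie 0.12.8, TopHat2 2.0.2, HTSeq, edgeR 3.1.10 and mm9 without a role for each. Per the labels' protocols, cDNA was amplified directly from each oocyte with spike-in RNA, which is not used here. Symbols came from GENCODE and promoters from RefSeq, both on GRCm38. Low FPKM values are whole multiples of 1 step per gene and library, which gave the smallest whole read counts for all 18300 genes with a value (tolerance 0.01). For 2437 genes seen in 1 oocyte the count is not determined. The recovery was tested on simulated data. Intervals are exact (95%), the floor is 3 reads per group, and both cover counting error only, since amplified reads are not independent molecules. The filter was 1 FPKM or more in 3 or more libraries, and the pseudocount 1. No test was run. Named were the 10 members, all genes of the families, genes of other lists over 2-fold apart (at most 4 per list), the 5 genes most like Mt1 and Mt2, and 3 neighbours on each side. Txn1, Selenow, Fkbp5, Fbxo43, Ndrg1, Pgf, Txnrd1, Gclm, Nqo1, Slc7a11 and single markers were named after their values were seen. The members and lists were chosen with earlier results of these data known. Alternatives were 2 other scalings, pseudocounts of 0.1 and 5, no filter or a filter at FPKM 10, and leaving out each oocyte. Python 3.11.15, pandas 2.3.3 and SciPy 1.17.1 were used.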

Additional observations from a re-analysis of the deposited data

Results flagged for a closer look

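In 30 genes of the families and of the other lists, the 4 KO oocytes were searched for 1 apart from the other 3. Such an oocyte was found in 5 genes. The usual chance rate of about 1 in 20 does not apply here, because 1 value above 0 beside zeros is always flagged. Slc39a7 was at 0.040 FPKM in KO1, Slc39a3 at 0.015 in KO2 and Mt3 at 0.119 in KO3, with the other KO oocytes at 0. Slc39a5 was at 0.048 FPKM in KO1 against 0.019 or less in the others, and Slc39a12 at 0.283 in KO3 against 0.084 or less. All 5 genes were under the filter, at levels where a few reads decide.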

How the results depend on the processing

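No paired analysis was possible because the results come from no test and the oocytes of equal number share no named animal. Of 124 recomputed differences of the 10 genes, 123 kept their sign, the other became 0 (Slc39a7 without KO1), and 11 moved by more than the SD within genotypes. The difference of Mt1 was 8.84 with a pseudocount of 0.1 and 3.98 with 5, and the sum of Mt1 and Mt2 gave 8.84 and 3.99. With a pseudocount of 0.1 the difference was 1.10 for Mt2, 1.81 for Slc39a1, 0.49 for Slc30a9 and 0.12 for Slc39a7, and with 5 it was 0.088 for Slc39a1 and 0.24 for Mtf1. Median-ratio scaling gave 0.23 for Mtf1 and -0.38 for Slc39a10, and quantile normalization 0.18 for Mtf1. Genes of the 10 over 2-fold higher numbered 2 with a pseudocount of 0.1, where 16.2% of all filtered genes were. They numbered 1 to 3 leaving out 1 oocyte (3 without WT1 and 2 without KO3), where 7.24% to 11.3% of all filtered genes were. Genes with every KO oocyte above numbered 1 with a filter at FPKM 10 and 2 to 5 leaving out 1 oocyte, and with every KO oocyte below 1 with median-ratio scaling (Slc39a10) and 0 to 1 leaving out 1 oocyte. Of the other family genes, 0 were over 2-fold higher with median-ratio scaling (5.12% of all filtered genes) and 0 to 1 leaving out 1 oocyte (7.24% to 11.3% of all). With a pseudocount of 0.1, 1 (Slc30a6, -1.03) was over 2-fold lower, as were 378 of the 8033 filtered genes. For the other moves the cause was not tested. Over all genes, 639 were over 2-fold higher and 188 lower (77.3% higher), against 405 and 336 (54.7%) with median-ratio scaling, 395 and 304 (56.5%) with quantile normalization, 1303 and 378 with a pseudocount of 0.1 and 148 and 61 with 5, and 201 and 75 with a filter at FPKM 10. Leaving out each replicate, the differences ranged from 5.97 to 6.26 for Mt1 (5.97 to 6.27 for the sum with Mt2), 0.14 to 0.30 for Mt2, 0.36 to 0.50 for Mtf1, 0.31 to 0.47 for Slc39a1, 0.18 to 0.92 for Slc39a6, 0.00 to 0.02 for Slc39a7, -0.20 to -0.11 for Slc39a10, 0.66 to 1.27 for Slc30a1, 0.61 to 1.30 for Slc30a5 and 0.09 to 0.26 for Slc30a9.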
